A study of Bos taurus with 8 samples.

Results

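The 1000 windows described here were the autosomal windows that drew the most reads in MIRA-Seq of bovine dermal fibroblasts. MIRA-Seq enriches methylated DNA: the proteins MBD2b and MBD3L1 capture methylated CpG sites from sheared DNA, and what they retain is sequenced. DNA came from un-treated fibroblast cultures at passage 5 from 4 Holstein heifers, a dairy breed, and 4 Angus heifers, a beef breed. There was 1 library per animal, and the libraries are called Holstein 1 to 4 and Angus 1 to 4. The authors counted reads in consecutive windows of about 3 kb of the UMD v3.1 genome. Each count was converted to CPM, in which every library is scaled to the same total of reads over all its windows. The mean CPM over the 8 libraries was then ranked over chromosomes 1 to 29, and the highest 1000 windows were kept, of 837275 autosomal windows (0.119%) and 902984 windows in all (0.111%). Because the read level chose these windows, it is given as a description and was not tested.

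In mammalian cells most CpG sites outside CpG islands are methylated, while CpG islands at active promoters are usually free of methylation. A methyl-binding pull-down returns more reads where more methylated CpG sites lie close together. It also returns more reads where the DNA is present in more copies than the assembly holds. No input library was used here, so methylation level, CpG density and copy number cannot be told apart in the values below.

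The libraries held between 18691111 and 35525554 reads in windows. At that depth 3 reads, the smallest count taken as detection, correspond to 0.0844 to 0.161 CPM, and the lowest count of any of the 1000 windows in any library was 201 reads, in Holstein 3. Counting error alone at 201 reads gives a CV of 7.05%, and this covers counting only, since copies made by PCR are not independent molecules. Within a breed, none of the 12 pairs of libraries had counts over the 1000 windows that were alike within sampling noise. Libraries differed in the reads on unplaced scaffolds, which took 26.1% of reads in Angus 3, 20.0% in Holstein 1 and 10.6 to 16.1% in the other libraries. The labelled cell type could not be checked from these windows: the first windows of 26 fibroblast genes and of 22 genes of other skin and blood cells included none of the 1000.

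The mean level ranged from 94.4 to 9002 CPM, a ratio of 95.4 between the highest and the lowest window. The median was 161 CPM, with quartiles of 122 and 265 CPM. The other 109561 autosomal windows that passed the filter of the breed test (at least 1 CPM in at least 4 libraries) had a median of 1.602 CPM. The median over every autosomal window was 0.292 CPM. The distribution was steep at the top: 32 windows exceeded 1000 CPM, 624 lay under 200 CPM, and the 100 highest windows held 42.7% of the reads of the 1000. The threshold fell in a continuous range, with 94.5, 94.5 and 94.4 CPM in the last 3 windows kept and 94.4, 94.3 and 94.3 CPM in the first 3 left out, of which 1 carried the name RNF122 and 1 the name LOC100848791. Outside the autosomes, 8 windows of chromosome X and 440 windows on unplaced scaffolds lay above the lowest kept level.

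Together the 1000 windows held 35.6, 23.4, 29.6 and 25.1% of reads in Holstein 1 to 4. The shares in Angus 1 to 4 were 24.8, 27.5, 37.1 and 28.3%. The highest shares were those of Angus 3 and Holstein 1, the libraries with the most reads on unplaced scaffolds, and the part of that in the shares was not tested. By breed the share was 28.4 ± 5.44% (SD, n = 4) in Holstein and 29.4 ± 5.32% in Angus, a difference smaller than the SD within either breed. The 10 highest windows alone took 2.74% of reads in Holstein 2, 5.86% in Holstein 1 and 8.09% in Angus 3.

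The windows were unevenly placed. Chromosome 1 held 144 of them (14.4%, against 6.30% of autosomal windows), chromosome 8 held 133 (13.3% against 4.51%) and chromosome 27 held 96 (9.6% against 1.81%). The 8 chromosomes with the most members (1, 3, 4, 5, 7, 8, 27 and 29) carried 743 of the 1000 but 33.6% of autosomal windows. Chromosome 20 carried none, and chromosomes 12 and 22 carried 1 each. Relative to its size, chromosome 27 was highest with 6.34 members per 1000 windows, followed by chromosome 8 with 3.52 and chromosome 29 with 3.32, against 1.19 over all autosomes.

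**Figure D1:**
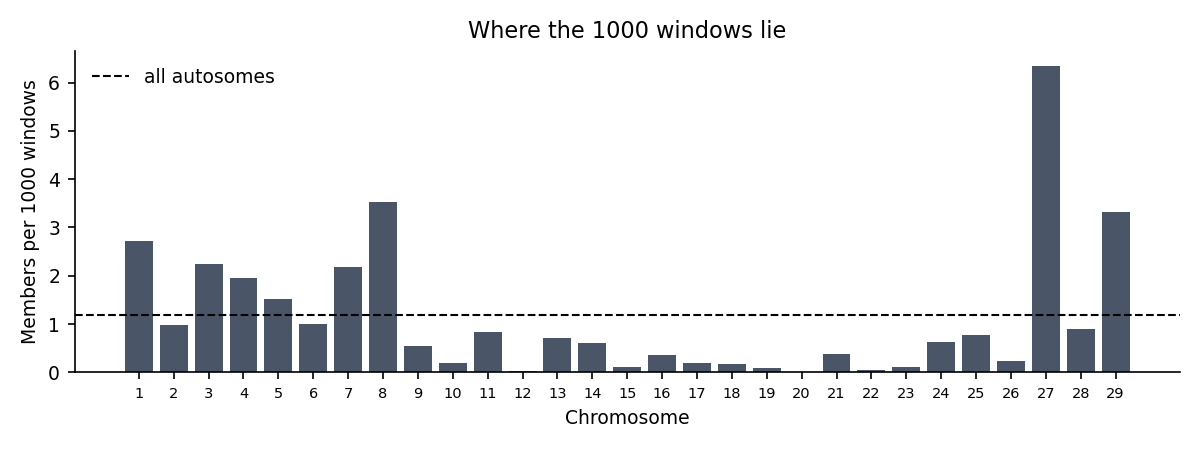
Members per 1000 windows (y axis) on each of the 29 autosomes (x axis); the dashed line is the value over all autosomes, 1.19. Chromosomes 27, 8 and 29 stand highest, and chromosome 20 has no member.

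Bovine autosomes are acrocentric, so the first bases of each sequence lie nearest to the centromere. The first 1 Mb of the autosomes held 35 members (3.5%), against 1.15% of all autosomal windows and 1.68% of the other tested ones, and they came from 13 chromosomes. Of these 35, 25 lay in the first 0.5 Mb. The last 1 Mb held 17 members (1.7%), against 1.16% of all and 5.59% of the other tested windows. Thus the first megabase held more members than its share of tested windows, and the last megabase fewer.

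Most members lay side by side. A direct neighbour that was also a member was found for 747 of the 1000, and the windows formed 403 runs, of which 253 were single windows. There were 33 runs of 5 or more windows with 437 members, and 17 runs of 10 or more with 320. The longest run was chr1:145290901-145395900, 35 windows over 105 kb with means from 137 to 9002 CPM. It was followed by chr8:74506787-74605786 with 33 windows, chr29:30295619-30385718 with 30, chr29:30223419-30292518 with 23 and chr8:74707787-74773786 with 22. None of these 5 runs carried a gene name.

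Of the 66 windows that flanked the runs of 5 or more, 39 still had over 50 CPM and 18 had under 10 CPM. Since many runs were parted by a window just under the threshold, members within 100 kb of each other were also joined into loci, with a distance chosen after the runs were seen. This gave 228 loci, 128 of them single windows. The 19 loci with 10 or more members lay on 11 chromosomes, and held 580 members and 66.7% of the reads of the 1000. The largest by number were chr8:74485787-74800786 with 94 members, chr27:28460767-28937766 with 90, chr1:145290901-145452900 and chr29:30223419-30385718 with 53 each, chr3:82708110-82912109 with 46 and chr5:114106506-114241505 with 41.

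Read levels dropped over a few windows at the edges of these loci, and at some edges between adjacent windows. At chr7:56568046-56625045, all 19 windows were members with a median of 621 CPM, while the window before stood at 0.250 CPM and the window after at 0.536 CPM. At chr1:145290901-145452900 the median over all its 54 windows was 373 CPM, against medians of 0.728 CPM over the 10 windows before and 2.71 CPM over the 10 windows after. At the chromosome 8 locus the corresponding medians were 167, 0.310 and 0.367 CPM. Over the 19 loci, 37 of the 38 sides had a median under 2 CPM in the 10 windows beyond the edge, and the remaining side was that of 2.71 CPM. The window directly beyond an edge could still be high, with 89.7 CPM after the chromosome 8 locus and 39.0 CPM after chr2:124756234-124795333. The loci were not all solid blocks. At chr1:57439901-57553900, 17 of 38 windows were members, and the median over all 38 was 0.556 CPM.

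**Figure D2:**
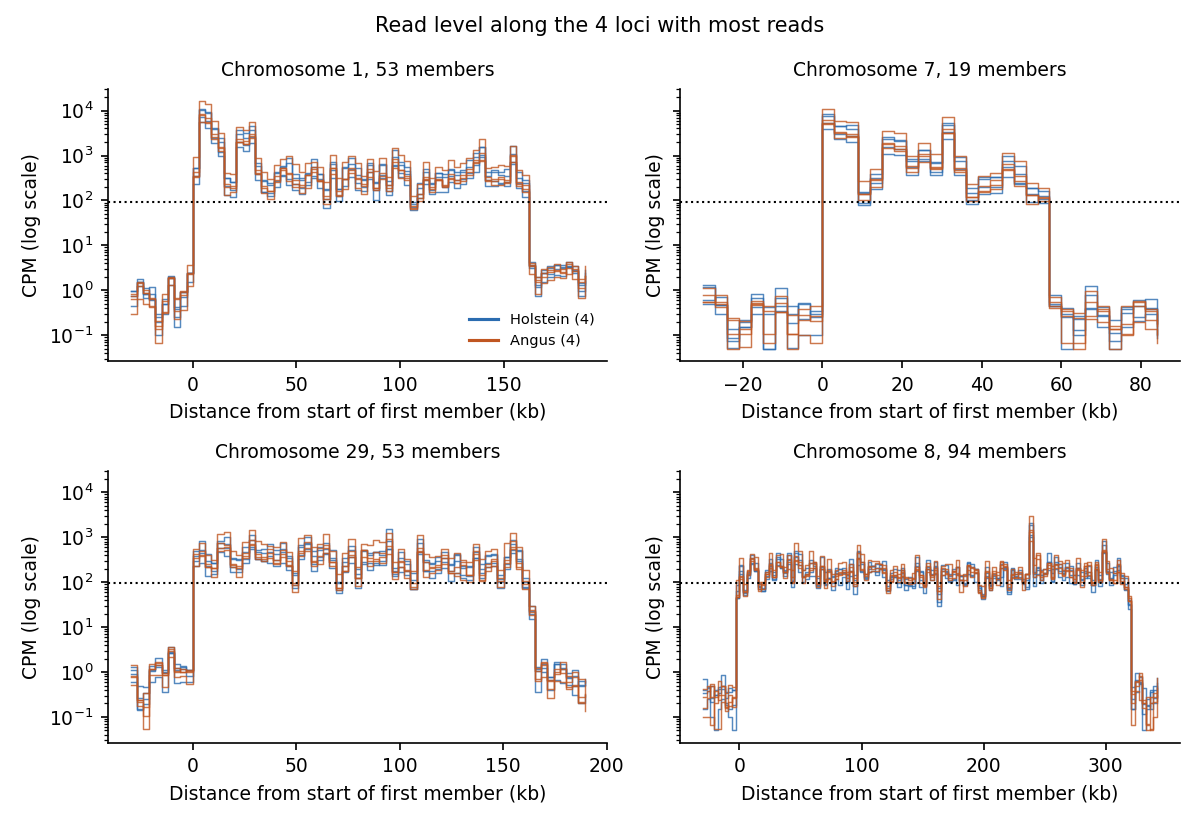
CPM (y axis, log scale) in consecutive windows by distance from the start of the first member (x axis, kb) at the 4 loci with the most reads; each line is 1 library, blue for Holstein and orange for Angus, values under 0.05 are drawn at 0.05, and the dotted line is the lowest kept mean level, 94.4 CPM. The lines rise steeply at the start of each locus and fall at its end in both breeds.

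The locus chr1:145290901-145452900 alone held 16.7% of the reads of the 1000 windows and on average 4.84% of all reads in a library. Its summed level was 62834, 28760, 56259 and 37389 CPM in Holstein 1 to 4. The Angus libraries, in order, had 38742, 44178, 84987 and 34394 CPM. Angus 3 was highest and Holstein 2 lowest, and the breeds overlapped.

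The 12 highest windows came from this locus, the loci chr7:56568046-56625045 and chr5:114106506-114241505 and the window chr3:90640310-90643309, and none carried a gene name. The highest was chr1:145293901-145296900, with 10324, 5676, 11082 and 7154 CPM in Holstein 1 to 4. Its level in Angus 1 to 4 was 7977, 8216, 16071 and 5517 CPM. The adjacent window, chr1:145296901-145299900, was second with a mean of 7424 CPM, and the first window of the chromosome 7 locus, chr7:56568046-56571045, came next with 6553 CPM. Of the other 9, 4 lay in the chromosome 1 locus (2228 to 3358 CPM), 3 in the chromosome 7 locus (3417 to 4164 CPM) and 1 in the chromosome 5 locus (2310 CPM), and the window on chromosome 3 had 2864 CPM. Angus 3 was the highest library in each of the 12.

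The highest coverage of a base in a window, divided by the mean coverage, describes how far reads stack on part of the window. The median of this ratio was 9.37 in the 1000 windows (3.08 to 38.9) and 5.91 in the other tested autosomal windows, and 896 of the 1000 exceeded that value of 5.91. The other tested windows held far fewer reads, and the effect of depth on this ratio was not tested. In 990 members at least 1 base had no read in every library, against 99.2% of the other tested windows. The deposited coverage is capped at a largest value, and all 14 instances of a window at the cap in a library were in 9 of the 1000 windows. These instances were left out, so the ratios of the 9 windows rest on their other libraries.

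Few of the windows carried a gene name. In the annotation deposited with the counts, 179 of the 1000 (17.9%) did, against 40.0% of autosomal windows and 59.5% of the other tested ones. Members made up 0.534 per 1000 named windows and 1.63 per 1000 unnamed windows. A coding exon was touched by 11 members (1.1%), against 13.3% of autosomal windows and 32.8% of the other tested ones. The named members belonged to 47 genes, 9 of them with LOC names, and 32 genes had a single member window. For 37 of the 47, the median over all windows of the gene was under 1 CPM, so the high windows were local within the gene. The highest medians were those of RNF122 (102 CPM over 167 windows), LOC789103 (53.2 CPM over 2) and TNFAIP8L3 (34.6 CPM over 35).

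RNF122, which encodes a RING finger ubiquitin ligase, had the most member windows. It accounted for 90 of the 179 named members, all in the chromosome 27 locus, and without them 9.78% of members carried a name. None of the 90 windows held a coding exon, and whether the name fits the whole span was not checked. Of the 167 windows that carry this name in the deposited annotation, 160 had at least 10 CPM, and the 77 that were not members had a median of 67.2 CPM. The summed level of its members was 16588, 9553, 13610 and 11510 CPM in Holstein 1 to 4. Angus 1 to 4 had 11225, 14212, 20581 and 12854 CPM, so that the breeds overlapped.

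SLC9A10, which encodes a sodium/hydrogen exchanger of sperm, followed with 16 of its 52 windows. The summed level of these windows was 3936, 3252, 2509 and 2725 CPM in Holstein 1 to 4. Angus 1 to 4 had 2820, 2553, 1789 and 3591 CPM, and Angus 3 was the lowest library in each of the 16. The highest of the 16 was chr1:57481901-57484900 with a mean of 417 CPM, whereas the median over all 52 windows of the gene was 0.283 CPM.

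ERBB4, a receptor tyrosine kinase for neuregulins, had 5 of its 325 windows among the members, and the highest reached 910 CPM. ADAMTS3, a metalloproteinase that trims procollagen, had 5 of 100, up to 288 CPM, and PLCB1, a phospholipase C of G protein signalling, had 5 of 304, up to 274 CPM. The 4 windows of ABI3BP, an extracellular matrix protein, reached 373 CPM. Genes with 3 member windows were ASB4, FRMD5, KIAA1324L (now ELAPOR2) and BTNL9. Of the genes with 3 or more members other than RNF122, PLCB1 was the one in which Angus 3 was the highest library in any window (3 of its 5). FSIP2, named for the fibrous sheath of sperm, had 1 member window, with the highest mean of any named window at 2125 CPM.

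Among the windows with a coding exon, 4 held coding exon 1. TSN, which encodes the DNA- and RNA-binding protein translin, was highest of these, with 634, 818, 584 and 681 CPM in Holstein 1 to 4. Its first window in Angus 1 to 4 had 521, 563, 366 and 993 CPM. ARHGEF11, RIMKLA (a ligase that makes N-acetylaspartylglutamate) and YBX1 (a Y-box nucleic acid-binding protein) had means of 231, 184 and 123 CPM in the window of coding exon 1. In each of the 4 genes the lowest library was Angus 3 and the breeds overlapped. The other windows with a coding exon belonged to WDR60 (503 CPM), ATP11B (281 CPM) and 5 LOC genes.

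Of 19 gene lists, 3 had members. The imprinted genes had 3 of their 947 windows, all in ASB4, which is expressed from the maternal copy in other mammals. These 3 adjoining windows had means of 362, 160 and 483 CPM, while the median over the 35 windows of the gene was 0.387 CPM. The ADAMTS and ADAM genes had 5 of 1887 windows, all in ADAMTS3. The solute carrier genes had 18 of 6103, of which 16 were SLC9A10 and 1 each was SLC44A5 (297 CPM) and SLC16A7 (97.2 CPM). The other 16 lists had none. Among them were the HOX clusters (72 windows), genes of the response to LPS (281), olfactory receptors (660) and germline genes (715). Collagens (1480 windows) and zinc finger genes (4168) were among them too. Over all named autosomal windows there were 0.534 members per 1000, so finding none in lists of these sizes is not read as a trait of their genes.

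On the scale of library totals, the CV between libraries was near that of the other tested windows. Those windows held far fewer reads, with medians of 25 to 69 per library against 3379 to 5215 in the members. Counting error is a larger part of the CV at such low counts, so the spread beyond counting was not compared. The CV over 8 libraries had a median of 27.2% (quartiles 23.0 and 34.2%, range 9.91 to 116%), against 26.0% for the other tested autosomal windows. It was 24.3% over the Holstein and 31.2% over the Angus libraries. The highest library exceeded the lowest by a median ratio of 2.36, and by more than 3 in 172 members. The lowest CV was that of chr2:124786334-124789333, with 265 to 353 CPM in the 8 libraries. Both next lowest were windows of the chromosome 8 locus, chr8:74587787-74590786 at 11.5% and chr8:74599787-74602786 at 12.1%.

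At the other extreme, a pair of nearby windows on chromosome 28 split the libraries into a high and a low group, each with libraries of both breeds. The window chr28:11352565-11355564 had 479, 44.9, 50.8 and 31.2 CPM in Holstein 1 to 4. Angus 1 to 4 had 322, 97.6, 502 and 525 CPM. Thus Holstein 1 stood with Angus 1, 3 and 4, and the other 4 libraries lay between 31.2 and 97.6 CPM. The window chr28:11361565-11364664 divided the libraries the same way, with 232 to 377 CPM in those 4 libraries and 29.2 to 54.9 CPM in the others.

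Of the single libraries, Angus 3 added most to the spread: without it the median CV was 21.99%, against 27.3 to 28.4% without any other library. With library totals as the scale, Angus 3 was the highest library in 375 members and the lowest in 388. It lay above the median of the other 7 libraries in 524 members and below it in 476, whereas it lay above in 3.70% of the other tested autosomal windows, where its median log2 ratio was -0.65. The 1000 windows thus fell into 2 groups in this ratio, one of which lay where the other tested windows lie. With TMM library sizes, which scale each library to the bulk of tested windows, the count above was 724 in place of 524, and Angus 3 was highest in 500 and lowest in 55. The median CV of the members was 38.3% on that scale, and no value for the other tested windows is given.

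**Figure D3:**
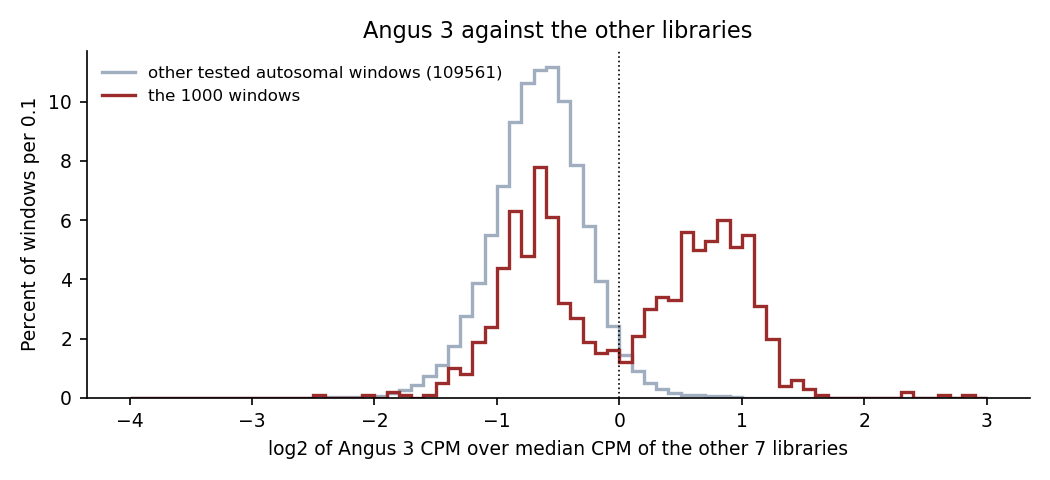
Percent of windows (y axis) in bins of 0.1 of the log2 ratio of CPM in Angus 3 to the median CPM of the other 7 libraries (x axis; 0.1 CPM added to both), for the 1000 windows (red) and the other tested autosomal windows (grey); 1 and 4 windows lie below the axis. The 1000 windows form 1 peak over the grey one and another to the right of 0.

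The direction was shared within loci. On the scale of library totals, 11 of the 19 loci had Angus 3 above the median of the others in their median window, and 421 of the 434 members of these 11 loci were above. The other 8 had it below, and 145 of their 146 members were below. The loci above were the ones on chromosomes 5, 7, 8, 11, 27 and 29, together with chr1:145290901-145452900, chr2:124756234-124795333 and chr4:57397205-57442304. The loci below were the ones on chromosomes 3 and 6 and the others on chromosomes 1, 2 and 4. With TMM library sizes 433 of the 434 were above, but so were 61 of the 146, so the level of the second group against the others depends on the scale.

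A ratio within a library does not depend on that scale. The summed CPM of the 11 loci divided by that of the 8 loci was 5.65, 3.46, 7.21 and 4.93 in Holstein 1 to 4. In Angus 1 to 4 it was 4.87, 6.13, 14.6 and 3.65. Angus 3 was highest, Holstein 3 came next, and Holstein 2 was lowest. Because the loci were grouped by the level in Angus 3, its own ratio is a description. The other libraries entered the grouping through the median, and the median each is set against includes Angus 3. Their values are therefore not independent of the grouping and are descriptions too. Holstein 2 was below the median of the other 7 libraries in most windows of the 11 loci (above in 21 of 434) but above it in 119 of the 146 windows of the 8 loci. Angus 4 was above it in 136 of the 434 and in all 146.

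**Figure D4:**
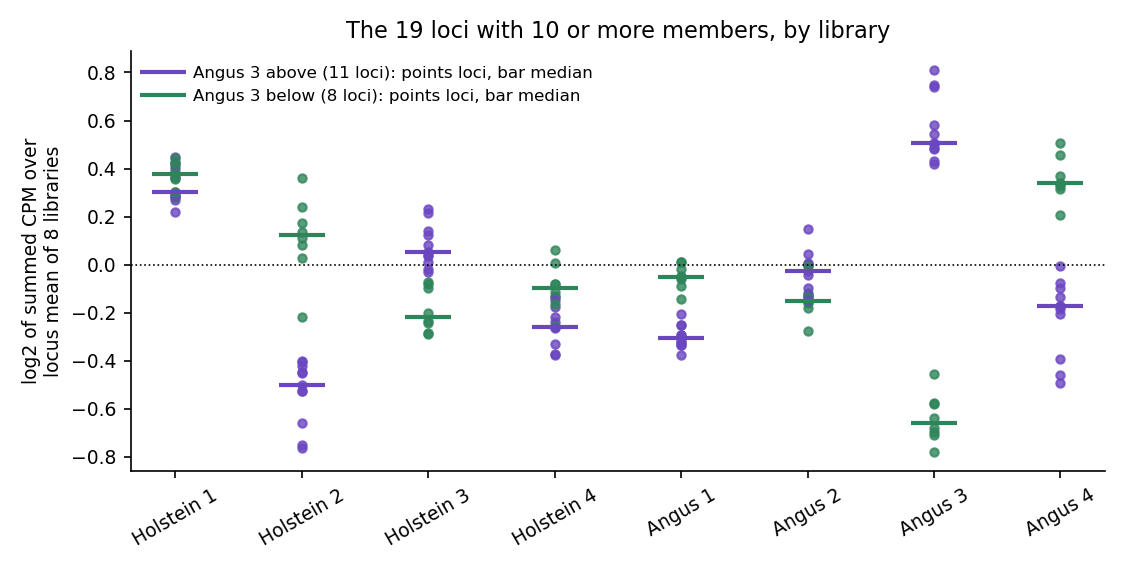
Log2 of the summed CPM of a locus over its mean of the 8 libraries (y axis) in each library (x axis), for the 11 loci with Angus 3 above (purple) and the 8 with Angus 3 below (green); points are loci and bars medians over loci. The colours part most in Angus 3, in the opposite order in Holstein 2 and Angus 4, and Holstein 1 is high in both. The mean includes Angus 3, by which the loci were grouped.

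Members on different chromosomes rose and fell together across libraries within each group. Pearson's r of log2 CPM had a median of 0.77 for pairs in the 11 loci, 0.84 for pairs in the 8 loci and -0.34 for pairs with 1 window in each. Without Angus 3, over 7 libraries, these medians were 0.70, 0.75 and 0.13. Neighbouring members, which adjoin each other in the same locus, had a median r of 0.85 over 597 pairs. These are descriptions over 8 points that share library depth, with groups chosen on the same values.

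Breeds were compared to ask whether the methylation signal of any window differed between Holstein and Angus cultures. The test was edgeR's likelihood-ratio test with TMM over all 115360 windows that passed the filter, with Benjamini-Hochberg adjustment, and a differentially methylated region (DMR) had FDR < 0.1 and a fold change of at least 2. Of the 1000 windows, 1 was a DMR (0.1%), while 0.231% of all windows tested were called. Of the autosomal windows tested 0.0923% were called, and of those outside the 1000 0.0922%. The DMR was higher in Angus, as were 0.192% of all windows tested, while 0.039% were higher in Holstein. Unadjusted p was under 0.05 in 23 members (2.3%), against 4.94% of all windows tested. With these settings the count of 1 in 1000 is near either background. The share moved with the settings, however. Without a CPM filter it was 0.9% of members, against 0.102% of all windows tested and 0.0656% of the autosomal ones. With autosomes only it was 0.6% against 0.110%. With the animal number as a block it was 0.6%, against 0.300% of all and 0.115% of autosomal windows. Without Holstein 1 it was 1%, against 0.493% of all and 0.119% of autosomal windows. With edgeR's quasi-likelihood test it was 0 of 1000 (14 members with unadjusted p under 0.05), against 0.122% and 0.0624%.

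The breed means were close in most windows. The ratio of the Holstein mean CPM to the Angus mean had a median of 1.01, and Holstein was the higher breed in 514 of the 1000. The means lay within 1.5 times of each other in 948 members and 2 times or more apart in 16. On the TMM scale of the test the median log2 fold change of Holstein over Angus was -0.13, against -0.002 over all windows tested. This small shift turned to 0.12 without Angus 3 and grew to -0.42 without Holstein 1, so that its direction rested on Angus 3.

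**Figure D5:**
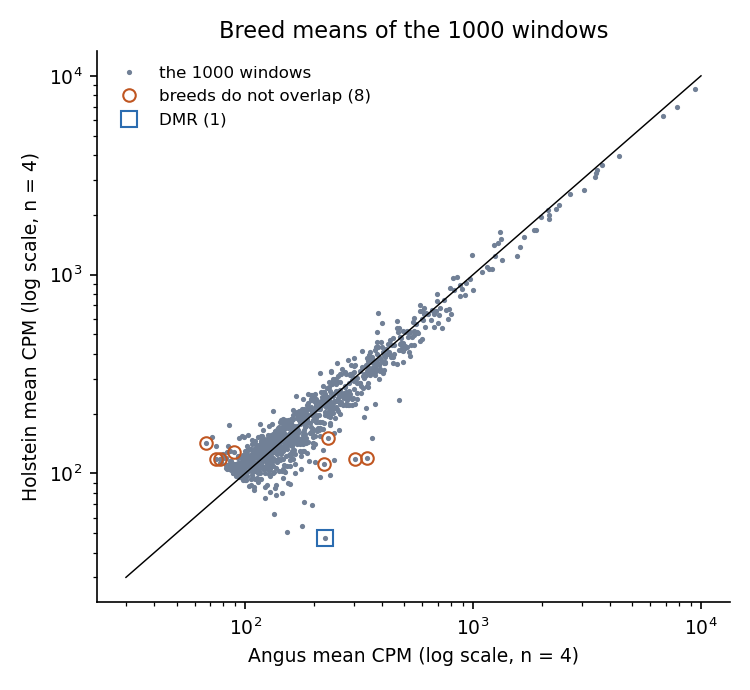
Mean CPM of the Angus libraries (x axis, n = 4) against the Holstein libraries (y axis, n = 4), both on log scales, for the 1000 windows, with the line of equal means; open circles mark the 8 windows whose breeds do not overlap and the square the 1 DMR. Most points lie along the line, and the DMR lies on the Angus side.

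The DMR was chr7:44050046-44053045, which carried no gene name. Its level was 82.3, 62.5, 7.6 and 36.1 CPM in Holstein 1 to 4. In Angus 1 to 4 it was 110, 303, 450 and 32.9 CPM. Angus 4 lay below 3 of the Holstein libraries, so the breeds overlapped, and the CV of 116% was the highest of the 1000. The log2 fold change of Holstein over Angus was -2.49 ± 0.67 (SE, edgeR, FDR 0.0695). Here and below, the SE was calculated back from the fold change and the p-value of the likelihood-ratio test. It therefore holds no information beyond that p-value. The call was lost when Holstein 2, 3 or 4 or Angus 2 or 3 was left out, with a log2 fold change of -1.54 without Angus 3. It was also lost with edgeR's quasi-likelihood test (FDR 0.381), with the DESeq2 Wald test (FDR 1.000), with at least 1 CPM required in all 8 libraries (edgeR, FDR 0.129) and with the animal number as a block (edgeR, log2 fold change -1.83, FDR 0.402).

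In 8 of the 1000 windows (0.8%) every library of 1 breed lay above every library of the other, while 1.31% of all windows tested and 1.18% of the autosomal ones did so. Holstein was above in 4 of the 8 (0.4% of the 1000, against 1.11% of all windows tested) and Angus in the other 4 (0.4% against 0.208%). These 8 were singled out after their values were seen, and none was a DMR with the settings above. In chr28:43072965-43075964 the level was 144, 133, 90.0 and 106 CPM in Holstein 1 to 4. In Angus 1 to 4 it was 327, 296, 311 and 280 CPM. This window had the tightest Angus libraries and the clearest gap of the 8, with a log2 fold change of -1.50 ± 0.43 (SE, edgeR, FDR 0.118). It passed without a CPM filter (edgeR, FDR 0.0518), with autosomes only (FDR 0.00994), with DESeq2 (FDR 0.0977) and without Holstein 1 (edgeR, FDR 0.00561), and its FDR over all alternatives ranged from 0.00561 to 0.561.

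In chr24:24861331-24864330 the Holstein libraries had 69.5 to 169 CPM and the Angus libraries 234 to 426 CPM (log2 fold change -1.61 ± 0.47, SE, edgeR FDR 0.145). This window passed with total counts (edgeR, FDR 0.0299), without a CPM filter (0.0175), with autosomes only (0.0176), with the animal number as a block (0.0449) and without Holstein 1 (0.00498), and its FDR reached 0.709 without Holstein 4. Angus was also higher in chr8:76344487-76347586, with 132 to 162 against 192 to 296 CPM, and in the RNF122 window chr27:28466767-28469766, with 66.5 to 148 against 154 to 342 CPM. Holstein was higher in the remaining 4. The furthest apart of these was chr21:2124563-2127562, with 105 to 178 CPM in Holstein against 39.6 to 90.7 CPM in Angus (log2 fold change 0.98 ± 0.39, SE, edgeR FDR 0.692). The others were chr1:153202101-153205100, chr4:98743005-98746004 and chr7:66694546-66697545, each with a log2 fold change of 0.42 to 0.60. In all 4 of these windows Angus 3 was the lowest library.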

How the data were processed

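MIRA-Seq libraries of 4 Holstein and 4 Angus cultures were analysed, with breed and animal number taken from the sample labels. The authors filtered the reads, aligned them to UMD v3.1 with NextGENe 2.3.4 (CASAVA 1.7 is also named in the submitters' notes) and deposited raw read counts in windows of about 3 kb without normalization. The deposited coverage signal of each window (lowest, highest and mean, capped at a largest value) was not scaled for depth, and was used only for stacking of reads. The handling of reads that match several places and of duplicate reads is not given in the sources used here, and it can change the level of any window described.

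CPM was computed over all windows of a library. Breeds were compared in R 4.3.3 with edgeR 4.0.16 (TMM, estimateDisp, generalized linear model likelihood-ratio test, Benjamini-Hochberg adjustment), after a filter of at least 1 CPM in at least 4 libraries. The test was run on simulated counts with known fold changes first. The simulation used the same dispersion for every window and no differences between libraries beyond depth and breed. It therefore does not bear on how the test behaves at the spread of these windows. Descriptions used Python 3.11.15, numpy 2.4.6, pandas 2.3.3 and matplotlib 3.10.9. DESeq2 1.42.0 was an alternative; others were another scale, filter or threshold, the animal number as a block, and each library left out. Libraries of a breed came from separate animals. Gene names are those of the deposited windows, and 38 of 47 were matched to RefSeq symbols or synonyms of ARS-UCD2.0, used for names only. No sequence is shown.

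The windows named were the 12 highest, DMRs, the 5 longest runs, genes with 3 or more members, the 3 highest and 3 lowest CVs, members in gene lists, coding exon 1 windows and 3 windows on each side of the threshold; other windows were named after their values were seen. The members and the gene lists were chosen with earlier results of these data known.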

Additional observations from a re-analysis of the deposited data

Results flagged for a closer look

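In 12 of 136 groups of 4 libraries looked at (the read share, 19 loci and 48 named windows, each in both breeds), 1 library stood further from the other 3 of its breed than Dixon's 95% limit; chance flags about 1 in 20 groups, and many of these windows lie in the same loci. In 6 windows or loci this was Angus 3 above the other Angus libraries at loci where it was high: summed CPM of 15218 at chr5:114106506-114241505 (others 9016 to 10032) and of 45240 at chr7:56568046-56625045 (others 20533 to 24683), and CPM of 13724 at chr1:145296901-145299900, 3626 at chr1:145314901-145317900, 5616 at chr7:56574046-56577045 and 7235 at chr7:56598046-56601045. It was also so at chr3:90640310-90643309, with 5803 CPM in Angus 3 and 1871 to 2478 CPM in the other Angus libraries.

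At both windows of chromosome 28 with a high CV, Holstein 1 stood apart from the other Holstein libraries, with 479 CPM against 31.2 to 50.8 CPM at chr28:11352565-11355564 and 377 CPM against 29.2 to 31.2 CPM at chr28:11361565-11364664. The remaining 3 had smaller gaps. Angus 4 had 638 CPM at the ASB4 window chr4:12626205-12629204 (others 415 to 445). In ADAMTS3, Holstein 1 had 218 CPM at chr6:89209982-89212981 (others 173 to 180) and Holstein 2 had 199.96 CPM at chr6:89212982-89215981 (the others 182 each).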

How the results depend on the processing

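Of the 1000 windows, 952 to 999 were kept when the median, the geometric mean, another scale, reads per kb, 1 breed or 7 of the 8 libraries was used, and 500 when the list was shortened to 500. The share with a direct neighbour was 64.4% in a list of 500, 84.8% in a list of 2000 and between these in the other lists. With wider joining, up to 100 kb, 79.3 to 87.2% of the 1000 had another member in their group. The share within 1 Mb of a chromosome start or end was 5.2%, against 2.31% of autosomal windows, and within 3 Mb it was 8.2% against 6.93%. Named windows were 0.447 times as frequent as over all autosomal windows, and 0.244 times without the windows named RNF122. The median CV of 27.2% became 38.3% with TMM library sizes. In every alternative the difference in read share between breeds was smaller than the main SD of either breed (5.44 and 5.32 percentage points). It was not set against the SD of each alternative. Its sign turned without Holstein 2, Holstein 4 or Angus 3 (-3.38 to 1.57 percentage points over the libraries left out).

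The count of DMRs among the members was the least stable result. It was 0 at FDR < 0.05, 0 with edgeR's quasi-likelihood test (14 members with unadjusted p under 0.05) and 0 when all 8 libraries had to reach 1 CPM (18). It was 5 with total counts (0.5%, against 0.340% of all windows tested and 0.117% of the autosomal ones). Without a filter it was 9 (0.9%, against 0.102% and 0.0656%), and with autosomes only 6 (0.6% against 0.110%). Over the libraries left out it was 0 to 10. It was 10 without Holstein 1 (1%, against 0.493% of all and 0.119% of autosomal windows). Without Holstein 3, Holstein 4, Angus 2 or Angus 3 it was 0. DESeq2 called 1, which was chr28:43072965-43075964. The cause was not tested. With the animal number as a replicate block the count was 6 (0.6%, against 0.300% of all and 0.115% of autosomal windows). Of these 6, 1 was higher in Holstein, and chr7:44050046-44053045 was not among them. The numbers do not pair the animals by any label, and same-numbered libraries did not deviate together (correlations of -0.21 to 0.13). Of the windows named for a breed difference, none turned direction in any alternative. The 8 windows without overlap were picked for their separation and the DMR for its fold change. That choice largely fixed the outcome, so it is no sign of stability. All members had at least 201 reads in every library. With 1 library per animal, animal and library preparation cannot be told apart in the spread.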
